A study of Rattus norvegicus with 4 samples.

Results

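The D cyclins and the inhibitors of cyclin-dependent kinases (CDKs) were followed across the cell types of the dispersed rat anterior pituitary, in resting and in cycling cells. The 8 genes were the D cyclins Ccnd1, Ccnd2 and Ccnd3, the Cip/Kip inhibitors Cdkn1a, Cdkn1b and Cdkn1c, and the Ink4 inhibitors Cdkn2a and Cdkn2c. They were taken by symbol from a single-cell count matrix of 30058 genes, in which each had 1 row. All 8 were detected, from 656 unique molecular identifiers (UMIs, counted molecules) for Cdkn1a to 8742 for Ccnd2, and a UMI was found in 5.98% of cells for Cdkn1a and in up to 53.1% for Cdkn1b.

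The cells came from untreated postpubertal Sprague Dawley rats, 4 females of postnatal day 44 in diestrus and 4 males of postnatal day 59. Anterior pituitaries were pooled by sex, dispersed with trypsin and EDTA, and run on 2 lanes a sex of a 3′ droplet platform. Lanes of a sex are therefore technical replicates of 1 pool, and sex, age and pool cannot be told apart. They are named by sex and by which held more cells in the matrix.

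Of 7861 cells, 6854 remained after filters, 1638 to 1797 a lane, with a median of 8196 to 9545.5 UMIs a cell. The markers of the study set 9 types: 2320 folliculostellate cells (FSC), 1889 somatotrophs (S), 793 corticotrophs (C), 545 leukocytes (Le), 486 lactotrophs (L), 361 erythrocytes (E), 238 gonadotrophs (G), 134 endothelial cells (EC) and 88 thyrotrophs (T). The marker genes of each type were highest in that type, which follows from the rule that set the types and is no independent check. G and T, which share Cga, were the closest, with G markers 1.498-fold higher in G than in T. A cell was called cycling when 14 or more of a set of 39 cell cycle genes passed their thresholds, and resting otherwise. The study chose the 39 among genes annotated to the mitotic cell cycle, so dividing cells that express few of them count as resting. Resting thus means a low score, and the phase of a cell was not determined. None of the 8 genes is among the 39. There were 104 cycling cells: 36 FSC, 27 S, 26 L, 8 Le, 5 EC and 2 C. Levels are given as CPM, the UMIs of a gene scaled to the total UMIs of the same cells. In this 3′ assay each molecule is read once at its end, so CPM needs no length correction. E, which should lack these genes, give a background level: a UMI of a member was found in 0 to 1.39% of them, at 1.59 CPM or less. They understate it for other types, since Gh1, a marker of S, stood at 1293 CPM in E and at 2557 to 4447 CPM in the 7 types other than S and E.

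D cyclins bind and activate CDK4 and CDK6, which phosphorylate the retinoblastoma protein and so release E2F factors that switch on genes of DNA replication. Ink4 proteins bind CDK4 and CDK6 and keep D cyclins from them, whereas the Cip/Kip proteins p21 (Cdkn1a), p27 (Cdkn1b) and p57 (Cdkn1c) bind complexes of cyclin and CDK and mainly block CDK2. The pituitary is known for its sensitivity to these genes: mice without p27 or without p18Ink4c (Cdkn2c) develop tumors of the intermediate lobe, and loss of CDK4 leaves few S and L.

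Promoters of 5 of the 8 genes were found in RefSeq (build GRCr8), as 300 bases from 250 before to 50 after the gene's start. Those of Cdkn2c and Cdkn1b are shown because both genes were higher in cycling cells, one with an E2F-type motif and the other without. Cdkn1a and Cdkn2a were also higher there, and their windows held no E2F-type motif. The part of the motif in these levels was not tested. Cdkn2c lies at chr5:129644842-129645141 (minus strand) and Cdkn1b at chr4:169491254-169491553 (plus strand). Capitals mark matches, on either strand, to the E2F-type motifs TTCCCGC and TTGGCGC, the CHR motif TTTGAA and the CCAAT box, each written 5′ to 3′.
Cdkn2c: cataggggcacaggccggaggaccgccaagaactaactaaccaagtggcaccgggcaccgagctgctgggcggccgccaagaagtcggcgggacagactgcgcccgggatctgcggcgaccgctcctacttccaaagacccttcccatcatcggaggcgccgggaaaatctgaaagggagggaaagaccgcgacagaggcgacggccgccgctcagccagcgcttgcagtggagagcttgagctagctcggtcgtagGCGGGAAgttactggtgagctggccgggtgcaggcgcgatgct
Cdkn1b: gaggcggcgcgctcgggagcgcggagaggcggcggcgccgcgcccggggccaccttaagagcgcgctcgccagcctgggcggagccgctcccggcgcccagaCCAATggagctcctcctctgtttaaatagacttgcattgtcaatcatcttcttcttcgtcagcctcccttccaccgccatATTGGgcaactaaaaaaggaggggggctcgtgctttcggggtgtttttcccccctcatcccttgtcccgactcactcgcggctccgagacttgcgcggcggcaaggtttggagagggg
The Cdkn2c window held TTCCCGC on the other strand, starting 7 bases downstream of the gene's start, and 4.21% of 33469 RefSeq rat promoters of this length held that motif. The Cdkn1b window held 2 CCAAT boxes, 148 and 68 bases upstream, a motif found in 37.5% of promoters. Ccnd3 had 1 CCAAT box, 132 bases upstream. The windows of Cdkn1a and Cdkn2a had no match to these motifs. Only 1 window a gene was searched, so motifs at other starts of a gene were not read. The GC box GGGCGG, not capitalized and found in 33.1% of promoters, occurred in the windows of Ccnd3, Cdkn1b, Cdkn2a and Cdkn2c.

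To ask how the genes differ between resting and cycling cells of the same type and pool, UMIs were summed by type, sex and state and tested in FSC and S together, the only types with at least 5 cycling cells in each sex. Cdkn2c rose most among the 8, 7.16-fold, and Cdkn1a, Cdkn2a and Cdkn1b rose too, whereas Ccnd1 and Ccnd2 fell. Ccnd3 and Cdkn1c did not pass the limit (adjusted p under 0.05, edgeR's quasi-likelihood test with Benjamini-Hochberg adjustment over all genes). Thus 6 of the 8 genes were called, 4 higher and 2 lower, while 7.99% of the 12027 genes outside the 39 were called higher and 10.7% lower. The median log2 difference over all genes was -0.25, and 43.7% of all calls, the 39 genes included, were higher in cycling cells. With library size alone as the scale these were 0.05 and 72.9%, and the direction of all 8 genes was the same on both scales. In males alone 1 of the 8 genes, Cdkn2c, was called. Cycling cells were deeper, with a median of 12583.5 against 6885 UMIs in FSC and 15171 against 13643 in S. The p-values measure the spread between 4 pairs of sums from 2 pools.

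**Figure D1:**
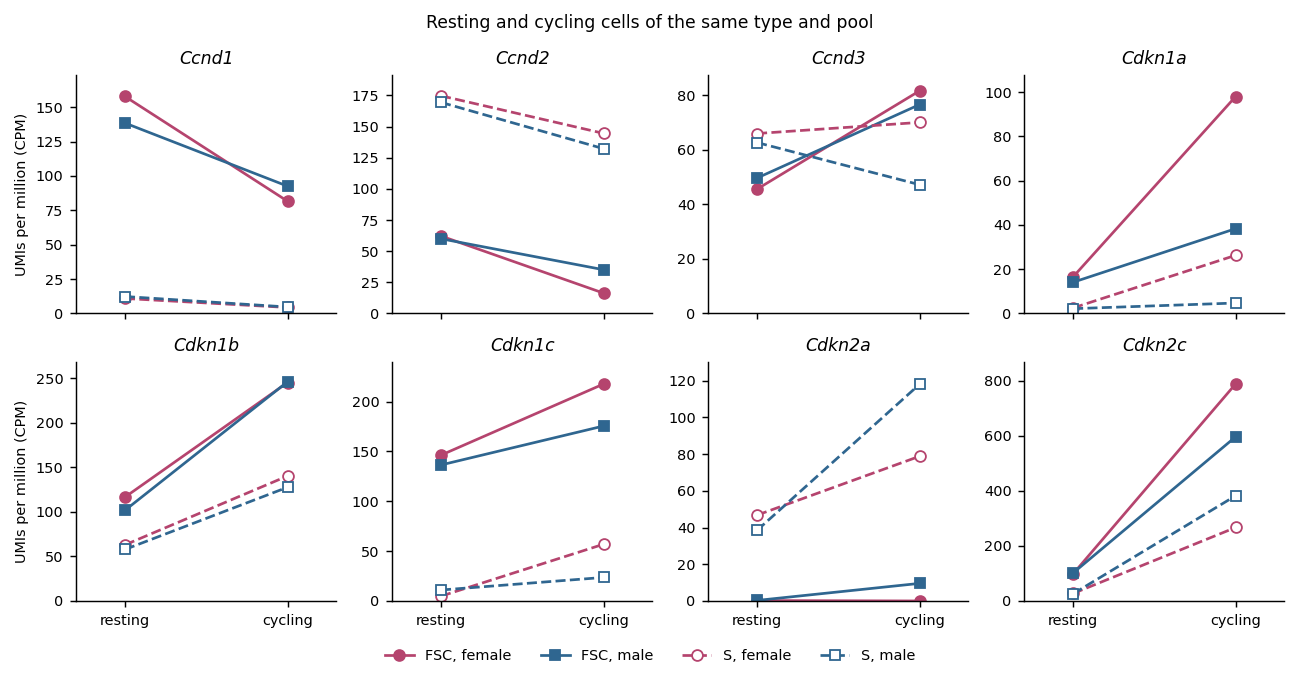
Level of each gene (y axis, CPM) in the resting and the cycling cells (x axis) of FSC and S of each sex, with a line for each of the 4 pairs. Cdkn2c, Cdkn1a, Cdkn1b and Cdkn1c rise along all 4 lines, and Ccnd1 and Ccnd2 fall along all 4.

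The D cyclins had different homes among the types. Ccnd1 was highest in EC, at 340.2 CPM, followed by Le at 177 and FSC at 146. Outside E it was lowest in L, at 1.90 CPM and a UMI in 2.47% of cells, against 1.27 CPM and 1.11% in E, with overlapping lanes. Per lane, in the order larger female, smaller female, larger male and smaller male, Ccnd1 stood in EC at 277, 310, 448 and 383 CPM. In L the same lanes held 0.469, 1.43, 3.07 and 4.54 CPM, so the groups lay far apart in every lane. Against the mean of the other 7 types except E, Ccnd1 was higher by 2.84 ± 0.18 on the log2 scale (SE, adjusted p = 3.81e-09, edgeR) in EC, and higher in Le, FSC and T, the last lost without the smaller male lane (0.75, adjusted p = 0.0927). It was lower in G, S and L, in L by -4.87 ± 0.35 (adjusted p = 8.97e-08). On the CPM scale T was not higher, with a mean over the sexes of 97.3 CPM against 110 over the other 7 types.

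Over the 8 genes and 8 types, 35 of 64 such contrasts were called, 19 higher and 16 lower, which is 54.7%, where 32.3% of the contrasts over all genes were. By type, 16.5% to 49.3% of all genes were called, so a type with many calls sets a high background. These p-values rest on 2 sums a type, 1 per sex. The median difference over all genes lay between -0.21 and 0.13 log2 in these contrasts and between -0.58 and 0.41 with library size alone, where no call for the 8 genes changed sign.

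**Figure D2:**
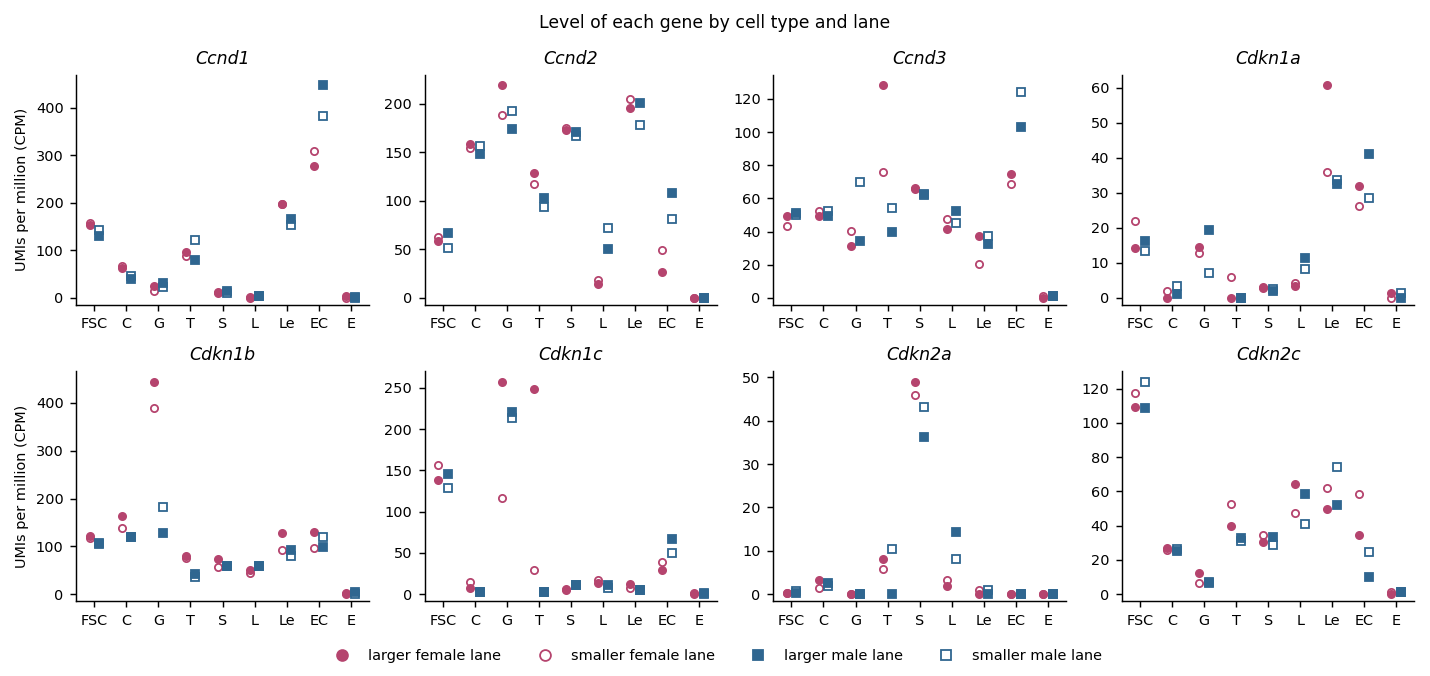
Level of each gene (y axis, CPM) by cell type (x axis), with 1 point for each of the 4 lanes. Ccnd1 stands highest in EC, Cdkn2a in S and Cdkn2c in FSC, and every gene lies near 0 in E. Cdkn1b and Cdkn1c have their highest lane in G, whose lanes overlap those of C for Cdkn1b and of FSC for Cdkn1c.

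Ccnd2 was high in several hormone cells, with 197 CPM in G, 171 in S and 154 in C, and in Le at 194. In T it stood at 105 CPM, beside 99.6 CPM of Ccnd1. Lane ranges of G and Le overlapped, and each of the following neighbours, S, C and T, stood apart from the one before. FSC (60.1 CPM) and EC (59.6) followed, with overlapping lanes. In L, the lanes held 14.5 and 18.6 CPM in females and 50.1 and 71.7 in males, so the female lanes were the lowest values of Ccnd2 outside E. Le, S and G were called higher than the other types (1.44, 1.20 and 0.90 log2), and FSC, EC and L lower (-1.18, -1.30 and -1.51). With E, where Ccnd2 had no UMI, added to the fit, FSC and EC turned to 0.30 and 0.26, not called, and L was no longer called. The call in EC was also lost with library size alone.

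Ccnd3 varied least. Its type levels ran from 32.0 CPM in Le to 89.8 in EC, E left out, and the lane ranges of the 6 types from S down to G overlapped their neighbours. The contrast for S was called, at 0.69 ± 0.17 log2 (adjusted p = 0.00571, edgeR), and was lost with library size alone. In the D cyclins as a group, a UMI of any of the 3 was found in 60.6% of FSC, 65.0% of S and 71.1% of T when each cell was thinned to 5000 UMIs, but in 31.9% of L.

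In cycling cells Ccnd1 stood at 81.6 CPM in female and 92.6 in male FSC, against 158 and 138 in resting FSC. Cycling S of each sex held 1 UMI of Ccnd1, or 4.38 and 4.72 CPM, against 10.9 and 12.3 in resting S. All 4 pairs were lower in cycling cells, by -1.13 ± 0.27 log2 (adjusted p = 0.00438, edgeR). The call was lost without the smaller female lane (adjusted p = 0.0944) or the smaller male lane (0.110). It was also lost when the cells that failed the filters were kept (-0.32, adjusted p = 0.380).

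Ccnd2 fell to 16.3 and 35.1 CPM in cycling FSC of females and males, from 62.2 and 60.0. In S it was 145 and 132 CPM against 175 and 169. The decrease was -0.88 ± 0.24 log2 (adjusted p = 0.0110, edgeR). It lost its call with library size alone (-0.59, adjusted p = 0.0939) and in cells thinned to 5000 UMIs (-0.75, adjusted p = 0.0835). FSC alone kept the call (-1.32, adjusted p = 0.00491). It was missed in S alone (-0.64, adjusted p = 0.0540), L alone (-0.14, adjusted p = 0.976) and males alone (-0.89, adjusted p = 0.191). For Ccnd3 the pairs did not point one way: cycling FSC held 81.6 and 76.6 CPM against 45.6 and 49.7, and cycling S 70.1 and 47.2 against 66.0 and 62.7. Its log2 difference was 0.01 ± 0.24 (adjusted p = 0.987). The difference of its cycling effect between FSC and S was 0.79 ± 0.44 (adjusted p = 0.648).

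Among the Cip/Kip inhibitors, Cdkn1b (p27) was the most widely detected, in 40.9% to 84.5% of the cells of each type except E. It was highest in G, at 334 CPM, and was called higher there by 1.59 ± 0.20 log2 (adjusted p = 3.03e-05, edgeR). The G lanes had a mean of 417 CPM in females and 156 in males. Their range, 129 to 445 CPM, overlapped that of C, 119 to 163. The next 4 types, C, EC, FSC and Le, lay between 96.7 and 132 CPM with overlapping lanes. It was called lower in T (-1.15) and L (-0.69), the latter lost in 4 of 11 alternatives, such as without the larger female or the smaller male lane.

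Cdkn1c (p57) was a gene of G (197 CPM, a UMI in 56.3% of cells) and FSC (142 CPM, 50.7%). FSC lanes held 138, 157, 146 and 129 CPM. In G the lanes held 258, 116, 221 and 213, and 1 cell of the larger female lane had 56 UMIs. G and FSC were called higher by 3.14 ± 0.39 and 2.45 ± 0.37 log2 (adjusted p = 2.52e-05 and 6.08e-05, edgeR). C, Le and S were called lower, at 6.65, 7.31 and 9.08 CPM, but Le lost its call in 2 of 11 alternatives, 1 of them without the smaller female lane, and S in 4, 1 of them without the larger female lane. T gave no stable level, since the larger female lane held 249 CPM from 31 UMIs, up to 15 in a cell, and the other lanes 29.3, 3.31 and 2.59.

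Cdkn1a (p21) was rare. It reached 39.8 CPM in Le and 31.1 in EC, whose lanes overlapped, then 16.4 in FSC and 13.5 in G, and lay at 5.71 CPM or less in the other types. Le, EC and FSC were called higher (3.20, 1.95 and 1.06 log2). S, C and T were called lower. In T the gene had 1 UMI in 88 cells, and the call was lost with DESeq2 and without either male lane. The calls in S and C were lost without the smaller female lane.

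In cycling cells Cdkn1b rose in all 4 pairs, to 245 and 246 CPM from 116 and 102 in FSC of females and males, and to 140.1 and 128 from 62.9 and 57.7 in S. Each pair was higher by 2.103- to 2.417-fold in CPM, and the fitted difference was 0.86 ± 0.18 log2 (adjusted p = 0.00162, edgeR). It lost its call without the larger male lane (0.51, adjusted p = 0.0768) and in cells thinned to 5000 UMIs (0.60, adjusted p = 0.112). Neither females alone (0.70, adjusted p = 0.199) nor males alone (0.90, adjusted p = 0.112) gave a call. Thinned to that depth, 67.6% of 34 cycling and 41.5% of 1897 resting FSC had a Cdkn1b UMI, as did 51.9% of 27 cycling and 25.7% of 1803 resting S.

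Cdkn1a was at 98.0 and 38.3 CPM in cycling FSC against 16.6 and 14.1 in resting FSC. In S it was at 26.3 and 4.72 CPM against 2.51 and 2.17, the male value being 1 UMI. The difference was 1.87 ± 0.39 log2 (adjusted p = 0.00147), with all 4 pairs higher. It was not called in males alone (1.17, adjusted p = 0.437), in S alone (2.36, adjusted p = 0.0906) or in L alone (0.24, adjusted p = 0.981), where cycling cells held 5.99 CPM and resting cells 5.69.

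The response of Cdkn1c differed between FSC and S. Cycling S held 56.9 CPM in females and 23.6 in males, against 4.83 and 11 in resting S, from 13 and 5 UMIs with up to 8 in a cell. Cycling FSC held 218 and 176 CPM against 146 and 136. Over both types Cdkn1c was not called (0.65 ± 0.34, adjusted p = 0.196), but it was in females alone (1.15, adjusted p = 0.0397) and with L added to the fit (0.89, adjusted p = 0.00865). In S alone the difference was 2.12 ± 0.56 log2 (adjusted p = 0.00997, edgeR) and in FSC alone 0.26 ± 0.22 (adjusted p = 0.513). The effect in FSC minus that in S was -2.04 ± 0.49 (adjusted p = 0.00465), the 1 gene of the 8 called in this test, in which 1.21% of all genes were. This call was lost without the smaller female lane (-0.72, adjusted p = 0.791), and under DESeq2 (adjusted p = 0.241) and library size alone (0.0577).

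The Ink4 gene Cdkn2a was found mainly in S. S held 42.7 CPM, with a UMI in 38.8% of cells, and the lanes were close at 49.0, 46.0, 36.2 and 43.2. No UMI was found in 238 G, 134 EC or 361 E, and 3 cells, the limit that a count of 0 allows, would be 1.26%, 2.24% and 0.831% of them. These limits cover counting error on cells with a UMI, not cells that express the gene at a level the assay missed. Against a floor of 3 UMIs over the group, S were at least 40.0-fold higher than G and 16.5-fold higher than EC. T (6.10 CPM), L (5.39) and C (2.25) lay between, and FSC and Le were at 0.419 and 0.542 CPM. S and L were called higher than the mean of the other types on the log2 scale (adjusted p = 7.73e-09 and 0.00126, edgeR). Their fitted log2 differences are not given as folds, since they depend on the prior count in G and EC, which had no UMI. On the CPM scale L was not higher. Its mean over the sexes was 6.83 CPM, against 7.57 over the other 7 types except E. Reads from the 3′ end do not separate the p16Ink4a and p19Arf transcripts of this gene, which share their last exons.

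Cdkn2c (p18Ink4c) was highest in FSC, at 115 CPM and a UMI in 50.1% of cells, with lanes at 109, 117, 109 and 124. Le and L followed at 60.1 and 53.6 CPM, with overlapping lanes, in sums that joined resting and cycling cells. In resting cells alone the means over lanes were 54.0 CPM in Le, 39.2 in T, 34.9 in L and 26.7 in S. The type contrasts were not run on resting cells alone. G were lowest outside E, at 8.55 CPM and a UMI in 7.98% of cells. FSC, Le and L were called higher (1.61, 1.23 and 0.95 log2), and C and G lower (-0.61 and -2.58). The call in C was lost with library size alone, without the smaller female lane and with E in the fit. G, the type with the lowest Cdkn2c outside E, thus held the highest Cdkn1b and Cdkn1c over all its cells. Its lane range overlapped that of C for Cdkn1b and that of FSC for Cdkn1c.

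Cdkn2c had the clearest response to the cycling state. Cycling FSC held 789 CPM in females and 597 in males against 98.7 and 102 in resting FSC. Cycling S held 267 and 383 CPM against 27.2 and 26.3. The lowest cycling value was thus above the highest resting value of both types. The difference was 2.84 ± 0.21 log2 (adjusted p = 6.08e-10, edgeR), and it kept its direction and its call under all 22 alternatives, from 2.57 to 3.28. At 5000 UMIs a cell, 88.2% of cycling and 37.8% of resting FSC had a Cdkn2c UMI, and 59.3% of cycling and 12.5% of resting S.

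Cdkn2c was also read in the cycling cells of the types left out of the test. Cycling L held 299 CPM (95% Poisson interval 253 to 351) against 32.4 (27.9 to 37.4) in resting L, and in L alone the difference was 3.03 ± 0.49 log2 (adjusted p = 5.70e-08, edgeR). The 8 cycling Le held 330.0 CPM against 54.7 in resting Le, and the 5 cycling EC 359 against 19. The 2 cycling C held 1 UMI, or 55.7 CPM (1.41 to 310.2), against 26.02 in resting C. In L alone none of the other members tested was called, with Cdkn1c at 1.44 ± 0.61 log2 (adjusted p = 0.245, edgeR), Cdkn1b at 0.68 and Cdkn1a at 0.24. The male cycling sum of that fit was 2 cells with 22402 UMIs and none of Cdkn1b or Cdkn1c, so a missing call does not show that these genes stay level. Female L held 117 CPM of Cdkn1b at a score of 14 or more and 37.0 at a score of 0. These intervals and counts cover counting error only. For Cdkn2c the effect in FSC minus that in S was -0.90 ± 0.27 log2 (adjusted p = 0.0657).

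Along the cell cycle score, Cdkn2c was high only in the top class. In FSC it was 102 CPM at a score of 0, 98.4 at 1 to 3, 45.3 at 4 to 13 (6 UMIs in 14 cells) and 668 at 14 or more. In S the same steps gave 25.3, 35.4, 50.02 and 323 CPM, and in L 30.7, 38.7, 41.8 and 299. Cdkn1b in S stood at 58.4, 64.1, 142 and 134 CPM, so its level at 4 to 13, from 34 UMIs in 18 cells, overlapped that at 14 or more. The D cyclins did not fall steadily along the score. Ccnd1 in S stood at 10.8, 15.9, 54.2 (13 UMIs) and 4.54 CPM, and in FSC at 139, 161, 159 and 88.5. Ccnd2 in S stood at 174, 157, 79.2 (19 UMIs) and 139 CPM, and in FSC at 61.3, 59.9, 83.1 (11 UMIs) and 28.2. Cells at 4 to 13 counted as resting in the test.

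**Figure D3:**
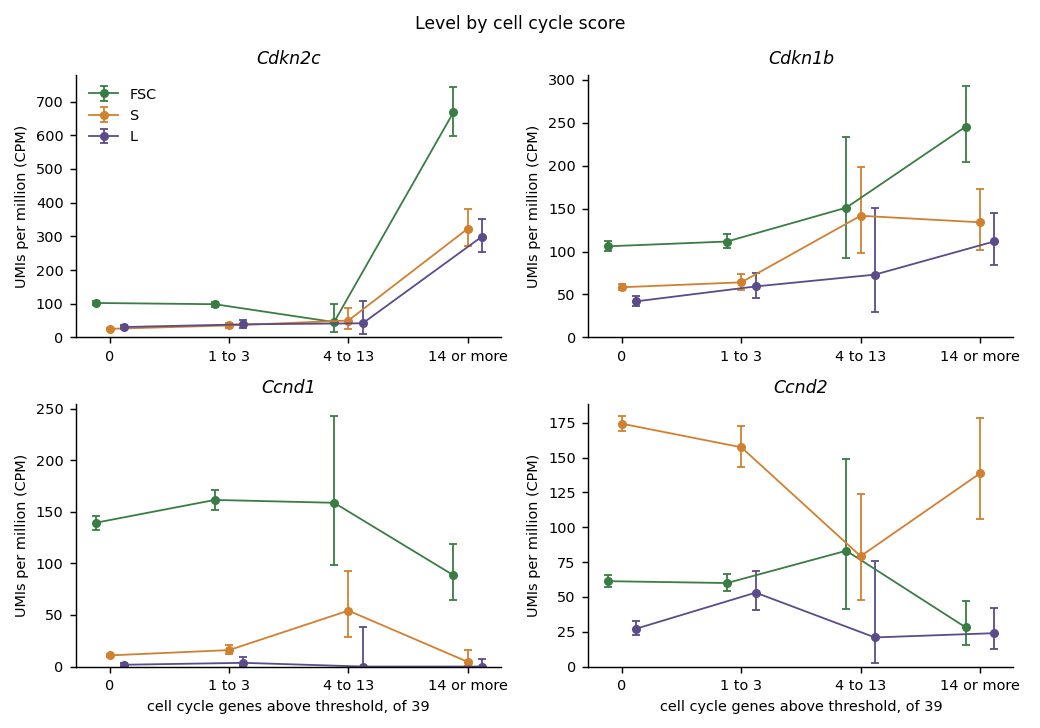
Level of Cdkn2c, Cdkn1b, Ccnd1 and Ccnd2 (y axis, CPM, with exact 95% Poisson intervals) by the number of cell cycle genes above threshold (x axis, of 39), in FSC, S and L. Cdkn2c is at or below 102 CPM in all 3 types up to a score of 13 and reaches 299 to 668 CPM at 14 or more.

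Cdkn2a in cycling S was 78.8 and 118 CPM against 46.8 and 38.5 in resting S. In FSC it had no UMI in female and 9.58 CPM (3 UMIs) in male cycling cells, against 0.238 and 0.294 (2 and 3 UMIs) in resting ones. The difference was 1.12 ± 0.38 log2 (adjusted p = 0.0443, edgeR), and 8 of 20 alternatives lost the call, including the fits without the smaller female lane (adjusted p = 0.159) and without the larger male lane (0.391) and that at 5000 UMIs a cell (0.268).

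The cells also differed in other markers. Cycling FSC held 1441 CPM of the 4 FSC markers against 3003 in resting FSC, and cycling S 212293 CPM of Gh1 and Ghrhr against 302091. The 4 markers of hormone cells summed to 1507 CPM in cycling FSC against 209 in resting FSC, and 682 of their 749 UMIs lay in 2 cells. With FSC rich in them left out, all 6 calls and their directions were as before. The 16 genes of the dissociation response summed to 26134 CPM in cycling and 34206 in resting FSC, and their part in the results was not tested.

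Other genes of the pathway, from lists chosen for their known roles, moved as follows in the same fit. Cells were called cycling by 39 cell cycle genes, so a rise of further cell cycle genes is not independent of that choice. All 14 tested of the 16 E2F target and DNA replication genes rose, with a median of 2.66 log2 against -0.25 over all genes. Rrm2, the small subunit of ribonucleotide reductase, rose by 7.89 log2, thymidine kinase Tk1 by 5.72 and Rrm1 by 3.37. Of 16 tested pocket proteins and E2F factors, 7 rose and none fell, with a median of 0.67. The repressors E2f8 and E2f7 led, at 6.42 and 5.59, and Rbl1 (p107) rose by 2.997.

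Of 12 CDKs and partner cyclins, 5 rose and 1 fell, with a median of 0.50. The mitotic cyclin Ccnb2 rose by 7.36 log2, Ccna1 by 4.50 and Ccne1, the partner of CDK2, by 3.76. Cdk6, a kinase that D cyclins activate, fell by 1.04, whereas Cdk4, which they also activate, was at 0.43 and not called. Of 11 genes for the turnover of p27 and cyclin D, 3 rose, with a median of -0.01. They were Skp2 (3.12) and Cks1b (2.87), which target p27 for degradation, and Usp2 (0.70), a deubiquitinase whose call was lost without any 1 of the lanes. Of 15 tested regulators and growth suppressors, Ezh2 rose (3.46), and Cbx7, Gadd45g and Gadd45b fell (-1.80, -1.15 and -1.01), with a median of -0.30. Cdkn2b, the other Ink4 gene tested, was at -1.25 and not called.

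**Figure D4:**
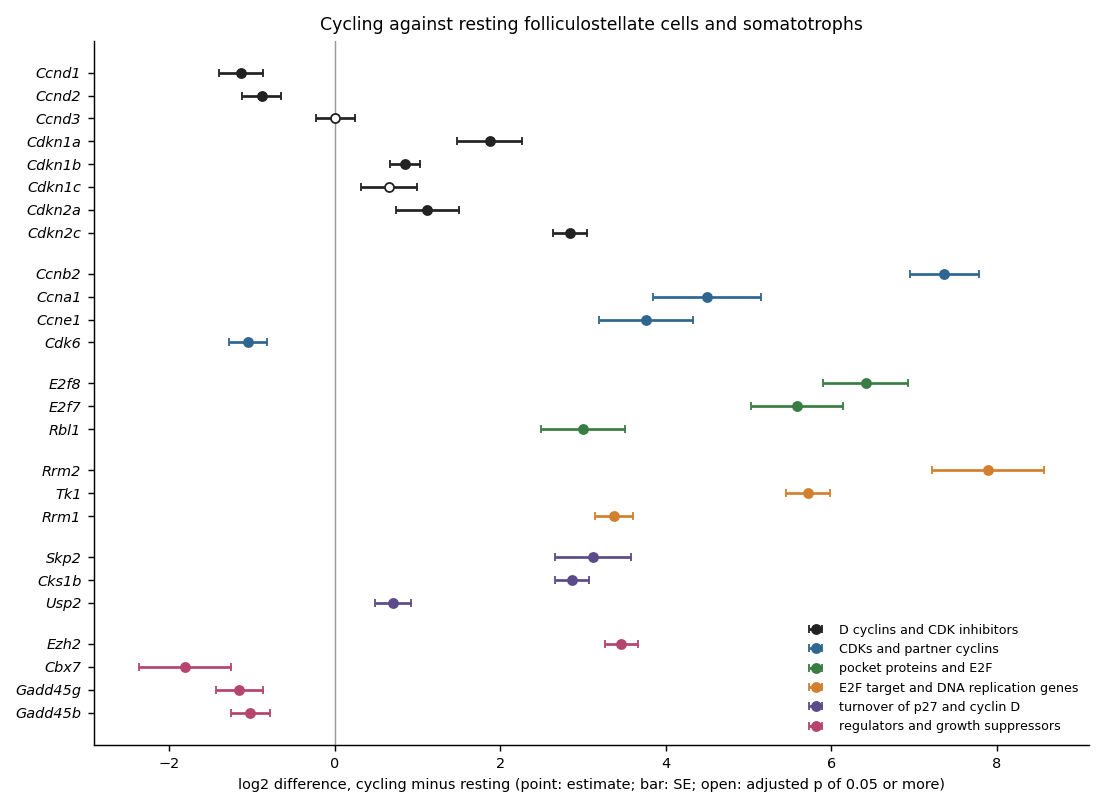
Log2 difference between cycling and resting cells (x axis, with SE bars) for the 8 genes and for named genes of the other pathway lists (y axis), filled where the adjusted p is under 0.05. Cdkn2c lies at 2.84, just below Cks1b at 2.87, and Ccnd1, Ccnd2 and Cdk6 lie between -0.88 and -1.13.

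Male and female lanes were then compared within each pituitary type, a contrast in which p-values measure the error between lanes of 1 pool a sex. As a check of the sex given to each lane, the Y-linked genes Eif2s3y and Kdm5d lay at 85.7 and 88.1 CPM and at 10.4 and 9.48 CPM in the male lanes, and at 0.0577 CPM or less in the female lanes. Ddx3y, also Y-linked, did not separate the lanes, at 0.708 and 0.408 CPM in males and 0.493 and 0.461 in females. The study reports Ddx3y in male pituitary cells only, and it renamed some gene symbols for display. Why the row with this symbol differs was not tested. Of 38 tests of the 8 genes, 12 were called, 3 higher and 9 lower in males, which is 31.6%, against 16.7% over all genes. Calls were most frequent in L, where 34.0% of all genes and 5 of the 7 members tested were called. DESeq2 called 2 of the 38, Cdkn1b in G and Ccnd2 in L.

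Cdkn1b in G stood at 445 and 390 CPM in the female lanes and 129 and 183 in the male lanes. The groups did not overlap, and males were lower by -1.68 ± 0.16 log2 (adjusted p = 2.30e-06, edgeR), a call kept in all 10 alternatives. The sex effect in G minus its mean in the other 5 pituitary types was -1.34 ± 0.17 (adjusted p = 8.11e-08). In this test of a difference 10 of 48 contrasts of the 8 genes were called (20.8%), against 5.84% over all genes. Other values moved with sex in G as well. The 4 G markers summed to 151895 and 184190 CPM in female lanes and 84840 and 95190 in male lanes, the dissociation genes to 6401 and 5434 against 13422 and 12633, and the median depth was 12383.5 against 8858 UMIs. Their part in the result was not tested.

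Ccnd2 in L, with the lane values given above, was higher in males by 1.24 ± 0.23 log2 (adjusted p = 2.35e-05, edgeR), also in all 10 alternatives, and its sex effect in L minus the other 5 types was 1.42 ± 0.23 (adjusted p = 6.71e-06). L differed between the sexes in many values: their markers Prl and Agtr1b summed to 320033 and 310264 CPM in female and 174198 and 183253 in male lanes, and the dissociation genes to 2830 and 3208 against 9107 and 9402. Of the 26 cycling L, 24 were female, and the sums joined cycling and resting cells. Library size alone moved the median sex difference of all genes in L from 0.02 to 0.67 log2, and the share of calls higher in males from 43.3% to 89.2%. Cdkn1c, Cdkn2c and Ccnd3 were called lower in male L (-1.39, -0.83 and -0.52) and Cdkn2a higher (1.41). On that scale the first 3 were not called and Ccnd3 turned to 0.14. Cdkn2a lost its call with DESeq2 and without the larger female (adjusted p = 0.345), the smaller female (0.130) or the larger male lane (0.390). Without the smaller male lane Cdkn1c and Ccnd3 lost theirs, as did Ccnd3 without the smaller female lane. At a cell cycle score of 0, Cdkn2c in L was 45.2 CPM in males and 25.5 in females, and at 1 to 3 it was 40.9 and 32.0. At 14 or more it was 580 CPM in the 2 male and 286 in the 24 female cells. The part of the cycling cells in the call of Cdkn2c was not tested.

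Further sex differences were called for Ccnd1 in C (-0.66) and FSC (-0.23), Cdkn1b in C (-0.39), Cdkn1c in C (-1.91) and S (0.85), and Cdkn2a in S (-0.32). Cdkn1c in S was at 11.2 ± 0.365 CPM in male and 5.93 ± 1.27 in female lanes (SD, n = 2). Each of these 6 was lost under at least 3 of its 10 alternatives. Cdkn2c in FSC, its main type, showed no call, at -0.0027 ± 0.078 log2 (adjusted p = 0.990).

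The genes most like each member over the 18 sums by type and sex were found by Pearson's r of log2(CPM + 1) over 8051 genes, as a description. The 18 points share pools, and the 2 sums of E lie near 0 for most genes. Ccnd1 was most like Itpr2 (r = 0.957), Ccnd2 like Psme2 (0.964), Ccnd3 like Helz (0.989) and Cdkn1b like Brf1 (0.963). Cdkn1a was most like Cyba (0.951), a subunit of the phagocyte oxidase, and Cdkn2a like Dlk1 (0.927), an imprinted gene. Cdkn2c was most like Oas2 (0.908) and then Cdk6 (0.906), whose product it binds. The nearest gene to Cdkn1c, Csrp2, reached 0.864.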

How the data were processed

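Single cells were sequenced from 2 lanes a sex and the submitters' processing notes name Cell Ranger 2.1, run on a rat annotation that the study had extended at 3′ ends. The deposited matrix holds UMI counts per gene and cell that the authors joined over lanes with Cell Ranger's mapped mode, which thins deeper lanes to equal mapped reads a cell, so depth per lane is after that step. The lane of a cell was read from its barcode suffix and its sex from the cells per lane in the matrix and in the study; 30 barcode sequences occurred in more than 1 lane. Replicate numbers of lanes were not given in the sources used here.

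Cells with a high mitochondrial share (276), outliers in genes or UMIs (331), doublets (188) and cells outside the 9 types were left out, 1007 in all with overlaps counted once. Types were set by marker genes above Otsu thresholds, as was the cell cycle score. Markers were taken from the study. The 8 genes, the lists and the tests were chosen with earlier results of these data known. Sums of counts over cells were tested with edgeR 4.0.16 (R 4.3.3): TMM factors, a minimum count of 10 (filterByExpr), the quasi-likelihood test and Benjamini-Hochberg adjustment over all genes tested, with a limit of 0.05. Cells were never used as replicates. Blocks were type by sex for the cycling state, and sex for the type contrasts. DESeq2 1.42.0 was an alternative. Fold changes are on the log2 scale, and shares have exact Clopper-Pearson and CPM exact Poisson intervals of 95%. The named genes are the 8 members, up to 3 called genes a direction with the largest fold changes from each list, and for each member the 3 with the highest r, of which the report gives 1 or 2. 1 further pathway list is not reported here. On simulated data the cycling fit recovered 34%, 85% and 98.5% of 200 genes changed 2-, 4- and 8-fold among 12066 genes. All simulated sums had the same gene proportions before the change, so the rates may not hold for genes that differ between FSC and S.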

Additional observations from a re-analysis of the deposited data

Results flagged for a closer look

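The cycling effect of Cdkn1c differed between FSC and S, by -2.04 log2 (FSC minus S), from 18 UMIs in cycling S. The call was lost in 3 of 8 alternatives: without the smaller female lane, with DESeq2 and with library size alone. The sex effect of 4 genes differed between a type and the mean of the other 5 pituitary types by edgeR's test of the difference itself. For Cdkn1c these differences (male minus female, in the type minus the others, log2) were 1.37 in FSC, 1.48 in G, 2.57 in S and -4.58 in T, of which FSC and G lost the call with DESeq2 (adjusted p = 0.192 and 0.157). The value in T rests on the 31 UMIs of the larger female lane: without it the difference in T was not called (-2.50, adjusted p = 0.488). Since the mean of the other 5 includes T, the contrasts of FSC, G and S share it. For Cdkn1b the differences were -1.34 in G, 0.44 in FSC and 0.48 in S, and FSC lost the call in 5 of 6 alternatives, including without each lane, and S in 4, including without every lane but the larger female. For Ccnd2 they were 1.42 in L and -0.61 in G, and for Ccnd1 -1.03 in C. Ccnd2 in G lost its call in 4 of 6 alternatives, including without every lane but the smaller female, and Ccnd1 in C in 3, without every lane but the larger female.

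Cells left out of the comparisons also held a signal. In 51 pericytes, recognized by Col1a1, Dcn and Lum, Ccnd3 stood at 178 CPM (65 UMIs, 95% Poisson interval 138 to 227), above the 89.8 CPM of EC, its highest level among the 9 types. The filters on mitochondrial share, depth and doublets were applied to the 9 types and not to these pericytes.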

How the results depend on the processing

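No paired analysis was possible because the sources used here do not tell which lane of a sex is replicate 1 and which is replicate 2, so the planned replicate block was not run. The limits are few sums, pooled animals and few cycling cells. Calls of the 8 genes in the type contrasts were 35, with 32 to 36 over leave-one-out fits and 17 at a limit of 0.001, and calls of all genes 35143, 30298 to 31900 and 14499. With E in the fit, Ccnd2 turned to 0.26 in EC and 0.30 in FSC. In the cycling fit 6 genes were called, 4 to 6 when leaving out a lane, 3 at 5000 UMIs a cell, 1 in L alone, 1 in males alone and 1 at a limit of 0.001. Called genes outside the 39 numbered 2249, 1685 to 2102 without a lane, 1443 with DESeq2, 1313 in S alone, 260 in L alone, 1124 with Le, EC and C added, 1020 in females, 727 in males and 697 at a limit of 0.001. With the 39 genes included, 60.7% of the calls of DESeq2 were higher. Ccnd3 turned to -0.13 with no filter, -0.065 with sums per lane, -0.46 in S alone, -0.27 in L alone, -0.23 at a score of at least 20, -0.18 at 5000 UMIs and -0.14 in males, and ran from -0.088 to 0.019 without a lane. Between FSC and S, 1 of the 8 genes was called, 0 with DESeq2 (2 at an unadjusted p under 0.05) or library size alone (3) and 0 to 2 without a lane (0 without the smaller female lane, 3 unadjusted), and 146 genes outside the 39, 49 with DESeq2 and 77 to 128 without a lane. In the sex contrasts 12 calls became 2 with DESeq2, 7 with library size alone, 7 in 1 fit over all types, 3 at a limit of 0.001 and 7 to 10 without a lane. All genes gave 8934 calls, 3409 with DESeq2, 3590 at a limit of 0.001 and 6552 to 7539 without a lane. Ccnd3 in L turned to 0.14 with library size alone. Sex effects between types gave 10 calls, 6 to 7 without a lane, and 4749 over all genes, 2836 to 3456 without a lane. The share of type calls that were higher ran from 52.5% to 71.1% by type, and from 37.7% to 85.7% with library size alone. The causes were not tested, except that fewer sums or cells entered the fits on 1 type, 1 sex or 3 lanes.

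Shares of cells with a UMI fell when each cell was thinned to 2000 UMIs: Ccnd1 in EC from 68.7% to 36.6%, Ccnd2 in C from 77.7% to 26.99%, Ccnd3 in S from 52.6% to 11.8%, Cdkn1a in EC from 21.6% to 2.99%, Cdkn1b in G from 84.5% to 45.4%, Cdkn1c in G from 56.3% to 28.6%, Cdkn2a in S from 38.8% to 7.36% and Cdkn2c in FSC from 50.1% to 18.3%. Otsu thresholds gave 64.6% for Ccnd2 in C, 44.2% for Ccnd3 in S and 34.6% for Cdkn2a in S. Without a lane these shares ran, in the same order, from 64.6% to 71.8%, 77.2% to 78.1%, 51.2% to 54.0%, 20.2% to 23.2%, 77.8% to 89.1%, 52.6% to 60.1%, 36.7% to 39.8% and 48.9% to 51.5%.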

Other observations

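Other cells outside the 9 types, to which the filters on mitochondrial share, depth and doublets were likewise not applied, gave the following values. The 59 cells with posterior pituitary markers held Cdkn1c at 230.0 CPM (95% Poisson interval 195 to 269.5), with a UMI in 74.6% of them, where G held 197 CPM. The 51 pericytes held Cdkn1c at 123 CPM and no UMI of Cdkn2a. The 60 melanotrophs, the hormone cells of the intermediate lobe, held Ccnd2 at 81.4 CPM, Cdkn1b at 80.0 and Cdkn2c at 37.2, and Cdkn1c at 12.4 from 9 UMIs in 2 cells.

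With each cell thinned to 5000 UMIs, a UMI of at least 1 of the 5 CDK inhibitors was found in 97.1% of 34 cycling and 78.7% of 1897 resting FSC. A UMI of 2 or more of them was found in 82.4% and 37.7%. In S, 51.9% of 27 cycling and 11.6% of 1803 resting cells held 2 or more, and in L 46.2% of 26 and 9.93% of 413. A UMI of any D cyclin was found in 50% of cycling FSC (exact interval 32.4% to 67.6%) and 60.8% of resting FSC.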
